A study of Homo sapiens with 16 samples.

Results

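The genes of the Notch pathway were followed during treatment of SUM-225 cells, a HER2-amplified human breast cancer line, with CP724,714, an inhibitor of the HER2 kinase. The genes were 3 receptors (NOTCH1, NOTCH2 and NOTCH3), 3 ligands (JAG1, JAG2 and DLL1) and 2 target genes (HES1 and HEY1), 8 of the 18631 gene symbols in the table, chosen by name. Every probe assigned to one of them was described, which gave 11 probes of 24526. All 11 were above background on at least 3 arrays and were tested together with the other probes of the table, 16110 in all. Parallel cultures received 1 µM CP724,714, and 1 was harvested every 3 h from 0 h to 45 h. The labels give Ham's medium with fetal bovine serum, insulin and hydrocortisone, while the study's methods describe this line in a serum-free medium without insulin, and which of the media these cultures had was not settled here. Each culture gave RNA for 1 Illumina bead array, 16 in all. Since each time had a single array, the errors below are standard errors from a curve fitted through the arrays. Untreated cultures were not analysed here, and the effect of the inhibitor cannot be told apart from time in culture. The line carries the HER2 amplification at all time points, 0 h included.

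Notch receptors are membrane proteins that are activated by ligands on a neighbouring cell. Binding exposes the receptor to cleavage by an ADAM protease and then by γ-secretase, and the intracellular part that is set free enters the nucleus and joins the DNA-binding protein RBPJ and a Mastermind coactivator to turn on genes such as HES1 and HEY1, which encode transcriptional repressors. In the breast, Notch signaling is known for its part in luminal cell fate, and overactive Notch receptors occur in breast cancer.

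Of the transcripts followed, HEY1 rose the most. On its brighter probe the first 4 arrays were the lowest and the last 4 the highest. HES1 rose within the first 9 h and then stayed high. JAG2 fell sharply between 9 h and 12 h and partly recovered, and JAG1 was higher from 12 h to 21 h than before. NOTCH2 rose and NOTCH3 fell by smaller amounts. With a cubic curve in hours fitted by limma, the F-test called the signal of 8 of the 11 probes time-dependent at an adjusted p under 0.05, against 51.3% of all probes tested. A linear rise passed for 4 probes, against 26% of all probes, and a linear fall for 1, against 21.7%. The median linear change over 45 h was 0.12 log2 units for the 11 probes and 0.05 for all probes tested. The share of time-dependent Notch probes was thus above that of the table as a whole, but with 11 probes of 8 genes this is a description and was not tested. When the fit allowed a step from 21 h to 24 h, 1 of the 5 linear calls was left, that of HEY1. With the 12 h window as a factor 0 were left by limma, with 2 (HES1 and HEY1) at an unadjusted p under 0.05. That window fit called few probes of the whole table, 145 of the 16110 tested. The share of all probes called with the step was not counted.

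The cells were checked against marker genes. The 8 luminal and HER2 markers (ERBB2, GRB7, KRT8, KRT18, KRT19, CDH1, EPCAM and ELF3) were above background on all 16 arrays, and ERBB2 had a signal intensity of 68946 to 72059, near the brightest signals of the arrays. Of these 8, ELF3, an epithelial transcription factor, rose by 1.85 ± 0.13 log2 units over 45 h, and the keratins KRT8 and KRT18 fell by 0.68 ± 0.10 and 0.74 ± 0.10 (limma). The log2 of the summed levels of the 8 lay between 17.86 and 18.12 from 0 h to 9 h and between 18.05 and 18.18 from 36 h to 45 h. ERBB2, KRT19 (signal 66523 to 71696) and GRB7 (40758 to 71265) had the highest levels of the 8. The sum therefore reflects these genes most and could show little of the changes of the others. Whether their signals were saturated was not tested. Of 4 basal markers, KRT5 and KRT17 were above background on all arrays, KRT14 on 3 and TP63 on 0. KRT17 fell by 3.20 ± 0.10 log2 units over 45 h and KRT5 fell by 1.28 ± 0.20. The log2 of the summed basal marker levels lay between 14.32 and 14.59 from 0 h to 9 h and between 12.22 and 12.48 from 36 h to 45 h. Of 8 stromal and blood markers, VIM, COL3A1 and PTPRC were above background on 0 arrays, CDH5 on 1, COL1A1 and COL1A2 on 5 each, and PECAM1 and CD68 on all. The log2 of their summed levels lay between 9.78 and 10.11 from 0 h to 9 h and between 9.80 and 10.21 from 36 h to 45 h. The part of the moving basal and luminal markers in the Notch courses was not tested. Fewer cells of a kind and less RNA per cell cannot be told apart in these bulk samples.

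Sequence upstream of NOTCH1, NOTCH2, NOTCH3, JAG1, JAG2, HES1, HES2, HES4, HES6, HES7 and HEYL was read from the RefSeq promoter table (assembly GRCh38.p14), because HES1 was one of the transcripts that changed most clearly here. That of HEY1, DLL1 and DTX1 was not read here. The 250 bases before the start of HES1 and of HES4, another gene of the HES family, are shown with each copy of TGGGAA, the core of the motif that RBPJ binds, in capitals. HES4 was chosen after its values were seen. HES1 lies on the plus strand and its window is chr3:194135898-194136147, and HES4 lies on the minus strand with the window chr1:1000098-1000347.
HES1: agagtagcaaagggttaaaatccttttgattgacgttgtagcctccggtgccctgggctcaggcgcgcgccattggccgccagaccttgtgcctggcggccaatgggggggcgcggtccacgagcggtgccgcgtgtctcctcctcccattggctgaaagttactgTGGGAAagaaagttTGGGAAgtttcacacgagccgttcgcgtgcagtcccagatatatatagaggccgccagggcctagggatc
HES4: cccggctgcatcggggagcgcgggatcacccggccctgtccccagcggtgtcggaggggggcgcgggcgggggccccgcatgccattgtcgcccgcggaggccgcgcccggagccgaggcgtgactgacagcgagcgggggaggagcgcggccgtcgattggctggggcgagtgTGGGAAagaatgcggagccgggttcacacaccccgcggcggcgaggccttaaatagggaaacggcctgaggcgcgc
The HES1 window held TGGGAA at -84 and at -70, counted back from the start, both copies on the strand of the gene. The HES4 window held it at -76. On either strand, TGGGAA was found in 20.8% of 35116 RefSeq promoter windows of this length, and in 2.9% with 2 or more copies. The window of HEYL, a target with no called change (linear change -0.31 ± 0.22, limma adjusted p = 0.279), also held 2 copies, at -178 and -99, and was chosen after its values were seen. No copy was found in the windows of NOTCH1, NOTCH2, NOTCH3, JAG1, JAG2, HES2, HES6 or HES7. The motif CACNAG, which HES proteins are known to bind, was found in the HES1 window at -165, -132 and -58, in those of NOTCH3 at -211 and HES7 at -115, and in 32% of all windows, with 2 or more copies in 6.32%. These are matches of letters only.

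HES1 encodes a short-lived repressor and is among the best known direct targets of Notch. Its normalized log2 signal was 10.99, 11.13, 11.18 and 11.51 at 0, 3, 6 and 9 h. From 12 h to 21 h it was 11.46, 11.53, 11.50 and 11.66, from 24 h to 33 h it was 11.65, 11.73, 11.60 and 11.73, and from 36 h to 45 h it was 11.52, 11.70, 11.53 and 11.65. The first 3 arrays were lower than all 13 later ones, and the later ones had no further order. The highest value, at 33 h, was 1.68-fold that at 0 h. The course depended on time (limma, adjusted p = 3.25e-05), rose by 0.53 ± 0.08 log2 units from start to end (adjusted p = 3.63e-05) and departed from a straight line (adjusted p = 0.0096). The deviations of the HES1 arrays from the fitted course had an SD of 0.08, against 0.22 for the median Notch probe. The departure from a line was found for 4 of the 11 Notch probes, in NOTCH3, JAG2 and HES1, against 19.3% of all probes tested.

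HEY1 encodes a related repressor of the HEY family. Its probe ILMN_1788203, above background on all arrays, had log2 signals of 7.75, 7.63, 7.60 and 8.10 from 0 h to 9 h and of 8.56, 8.20, 8.78 and 8.88 from 12 h to 21 h. They were 8.39, 8.97, 8.81 and 8.91 from 24 h to 33 h and 9.42, 9.44, 9.42 and 9.64 from 36 h to 45 h. The first 4 arrays were the lowest, the last 4 the highest, and the 8 between overlapped each other. At 45 h the signal was 3.70-fold that at 0 h. The linear rise was 1.97 ± 0.18 log2 units over 45 h (limma, adjusted p = 3.74e-08), and no departure from a line was detected (adjusted p = 0.806).

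A second HEY1 probe, ILMN_2407308, was dim and was above background on 9 of 16 arrays, none of them before 12 h. It thus passed the filter through the arrays in which it was high. Its log2 signal was lowest at 3 h, with 5.30, and highest at 45 h, with 6.83, and its 4 arrays from 36 h on lay between 6.14 and 6.83 against 5.30 to 6.11 in the first 4. Both HEY1 probes were lowest within the first 6 h and highest at 45 h, but the early values of the second probe were not above background. The fitted linear change of the second probe was 0.96 ± 0.26 log2 units over 45 h (limma, adjusted p = 0.00545). Because it was not above background at 0 h, the ratio of 45 h to 0 h can only be given as at least 1.72-fold. Across the 16 arrays, which all probes share, the 2 HEY1 probes had a Pearson r of 0.76, and HES1 and the first HEY1 probe had an r of 0.75.

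**Figure D1:**
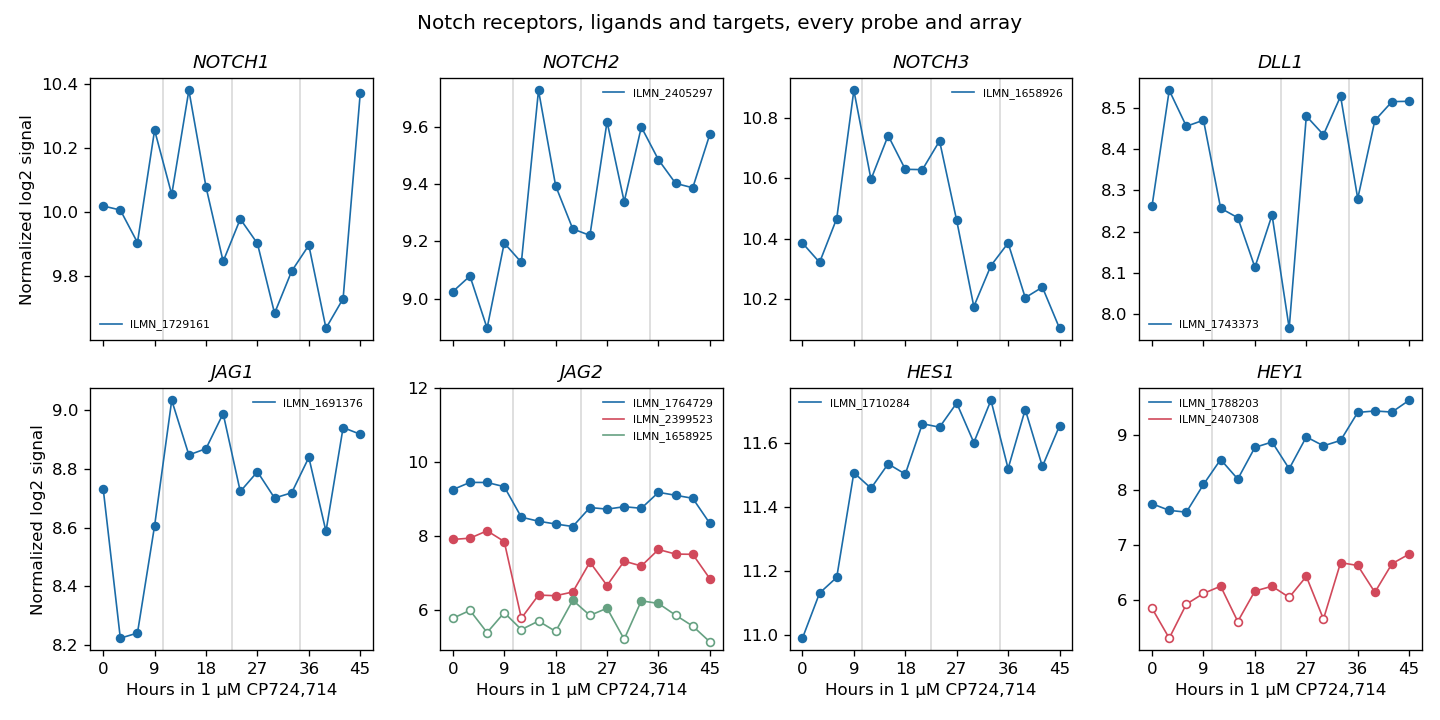
Normalized log2 signal (vertical axes, each panel with its own range) against hours in 1 µM CP724,714 for every probe of the 8 genes, 1 array per point. Filled points were above background (detection p under 0.05), open points were not, and grey lines part the 12 h windows. HEY1 climbs to 9.64 at 45 h, HES1 stays above 11.4 from 9 h on, and 2 of the 3 JAG2 probes drop between 9 h and 12 h.

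The receptors changed less. NOTCH1 had log2 signals of 10.02, 10.01, 9.90 and 10.26 from 0 h to 9 h and of 10.05, 10.38, 10.08 and 9.85 from 12 h to 21 h. They were 9.98, 9.90, 9.68 and 9.82 from 24 h to 33 h and 9.90, 9.64, 9.73 and 10.37 from 36 h to 45 h. The signal was highest at 15 h and again at 45 h, and the arrays from 24 h to 42 h were all below 10. The course depended on time (limma, adjusted p = 0.0308), while the linear change of -0.22 ± 0.14 did not pass (adjusted p = 0.194). Without the 45 h array the linear change was -0.44 and passed (adjusted p = 0.0106), and with array weights it was -0.34 (adjusted p = 0.0308). Time dependence was no longer called with median scaling, a quadratic, a spline or a step between 21 h and 24 h, and without the 9, 15, 30 or 39 h array.

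NOTCH2 had log2 signals of 9.02, 9.08, 8.90 and 9.19 from 0 h to 9 h and of 9.13, 9.73, 9.39 and 9.24 from 12 h to 21 h. They were 9.22, 9.62, 9.34 and 9.60 from 24 h to 33 h and 9.49, 9.40, 9.39 and 9.57 from 36 h to 45 h. All arrays of the last 12 h were above all of the first, with the highest value at 15 h. NOTCH2 rose by 0.50 ± 0.15 log2 units over 45 h (limma, adjusted p = 0.00833). Its F-test of time had an adjusted p of 0.0315, and that call was lost with cyclic loess, array weights, a spline or either step term, and without the 0, 3, 6 or 33 h array.

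NOTCH3 had log2 signals of 10.39, 10.32, 10.47 and 10.89 from 0 h to 9 h and of 10.60, 10.74, 10.63 and 10.63 from 12 h to 21 h. They were 10.72, 10.46, 10.17 and 10.31 from 24 h to 33 h and 10.39, 10.20, 10.24 and 10.10 from 36 h to 45 h. The signal was highest at 9 h, was above its 0 h value from 6 h to 27 h and was lowest at 45 h. Time dependence (limma, adjusted p = 0.00167), a linear fall of -0.40 ± 0.11 log2 units (adjusted p = 0.0074) and a departure from a line (adjusted p = 0.0205) all passed. NOTCH2 and NOTCH3, receptors of the same family, therefore had linear changes of opposite sign, each past the threshold in the same fit. Both linear calls were lost with a step at 9 h to 12 h or at 21 h to 24 h. They were also lost with the 12 h window as a factor.

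The ligand JAG2 showed the most abrupt course. Its probe ILMN_1764729 had log2 signals of 9.25, 9.45, 9.45 and 9.33 from 0 h to 9 h and then of 8.50, 8.40, 8.32 and 8.25 from 12 h to 21 h. They were 8.77, 8.72, 8.79 and 8.75 from 24 h to 33 h and 9.18, 9.10, 9.02 and 8.33 from 36 h to 45 h. The levels of the first 3 windows did not overlap. The 36, 39 and 42 h arrays came near the starting level and the 45 h array was low again.

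The probe ILMN_2399523 of JAG2 followed the same course at a lower signal. Its log2 signals were 7.90, 7.94, 8.14 and 7.84 from 0 h to 9 h and 5.76, 6.39, 6.37 and 6.48 from 12 h to 21 h. They were 7.28, 6.65, 7.31 and 7.18 from 24 h to 33 h and 7.63, 7.50, 7.50 and 6.83 from 36 h to 45 h. The 12 h array, the lowest, was not above background, so the signal at 9 h was at least 3.58-fold that at 12 h. Both probes depended on time (limma, adjusted p = 0.0201 for ILMN_1764729 and 0.0172 for ILMN_2399523) and departed from a line (adjusted p = 0.0471 and 0.0253), and neither linear change passed (-0.42 ± 0.23 and -0.32 ± 0.37). Neither departure was called without the 3, 15 or 18 h array, and that of ILMN_1764729 was called only when the array left out was that of 0, 6, 9 or 45 h. The r between these JAG2 probes was 0.90 over the 16 arrays. The remaining JAG2 probe, ILMN_1658925, was above background on 4 arrays, ranged from 5.12 to 6.25 without order and passed no test (linear change -0.07 ± 0.28).

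The drop of JAG2 between 9 h and 12 h was -0.83 log2 units for ILMN_1764729 and -2.08 for ILMN_2399523. In that step 5.44% of all probes tested moved at least as far, in either direction, as the first, and 0.0807% as the second. The table as a whole also moved more in that step than in most, with a root mean square of 0.416 log2 units between 9 h and 12 h against 0.258 between 18 h and 21 h. Only the step from 42 h to 45 h, with 0.418, was larger, and there JAG2 fell by 0.68 and by 0.66 log2 units on the same probes. The labels name no batch, and a change of the cells at 12 h and a difference between sets of arrays cannot be told apart.

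The ligand JAG1 went the other way. Its log2 signals were 8.73, 8.22, 8.24 and 8.61 from 0 h to 9 h and 9.03, 8.85, 8.87 and 8.99 from 12 h to 21 h. They were 8.72, 8.79, 8.70 and 8.72 from 24 h to 33 h and 8.84, 8.59, 8.94 and 8.92 from 36 h to 45 h. The 3 h and 6 h arrays were the lowest, and all 4 arrays from 12 h to 21 h were above the first 4. The cubic course gave no call for JAG1 (limma, adjusted p = 0.21 for time, linear change 0.32 ± 0.17). Both its time dependence and its linear change were called with array weights (0.50, adjusted p = 0.00847) and without the 0 h array (0.39, adjusted p = 0.0278). Across the arrays JAG1 had an r of -0.76 and of -0.74 with the 2 JAG2 probes.

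DLL1, a Delta-type ligand, had log2 signals between 7.97 at 24 h and 8.54 at 3 h, with a median of 8.46 from 0 h to 9 h and of 8.49 from 36 h to 45 h. No test passed for it (limma, adjusted p = 0.348 for time, linear change 0.12 ± 0.14). A change of the size seen for JAG2 was not measured for DLL1, whose 16 arrays spanned 0.58 log2 units in all.

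**Figure D2:**
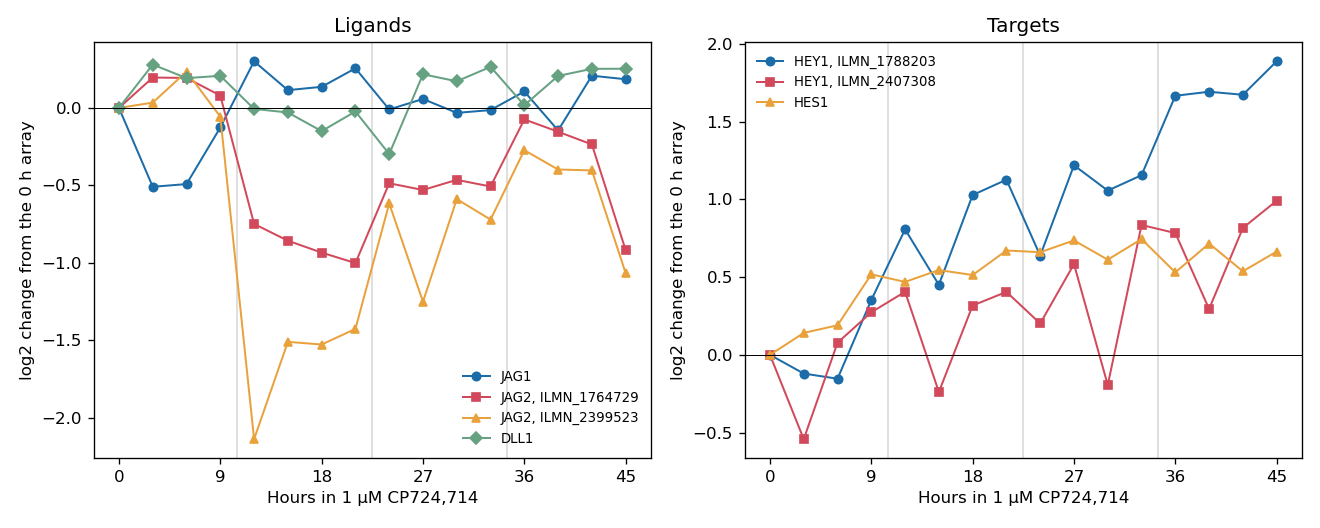
Log2 change from the 0 h array (vertical axes) against hours in 1 µM CP724,714 for the ligand probes (left) and the target probes (right), 1 array per point. The weakest JAG2 probe is left out and grey lines part the 12 h windows. JAG2 drops and JAG1 rises at 12 h, and HEY1 ends 1.89 above its 0 h value.

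Because several courses moved in steps, the arrays were also compared as 4 windows of 12 h (0 to 9, 12 to 21, 24 to 33 and 36 to 45 h), with 4 arrays each that differ in time and are not replicates. Of the 11 Notch probes 6 differed between windows in the limma F-test, against 46% of all probes. Of these NOTCH2 (adjusted p = 0.0327) was lost with cyclic loess, without a detection filter and without the 0, 3, 6, 33 or 36 h array, and JAG1 (adjusted p = 0.016) without the 3 or 6 h array. From the first window to the second 3 probes were higher, those of JAG1, HES1 and HEY1, against 15.9% of all probes, and 2 were lower, both of JAG2, against 13.9%. JAG1 was higher by 0.48 ± 0.12 log2 units (adjusted p = 0.00547), HES1 by 0.34 ± 0.10 (adjusted p = 0.0113) and HEY1 by 0.83 ± 0.16 (adjusted p = 5.39e-04). JAG2 changed by -1.002 ± 0.142 (adjusted p = 3.38e-05) and by -1.70 ± 0.20 (adjusted p = 3.86e-06) on its 2 probes. Without background correction the change of ILMN_2399523 was -0.76 and that of HEY1 was 0.52, since low signals are compressed. These 5 differences passed in every setting tried in which the probe was tested.

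From the second window to the third only ILMN_2399523 of JAG2 was called higher, by 0.86 ± 0.20 log2 units (limma, adjusted p = 0.0102), against 4.21% of all probes. ILMN_1764729 of JAG2 was higher by 0.39 ± 0.14, which did not pass (adjusted p = 0.112). The HEY1 probe ILMN_1788203 was higher by 0.16 ± 0.16, which did not pass either (limma, adjusted p = 0.629). From the third window to the fourth HEY1 was higher by 0.71 ± 0.16 (adjusted p = 0.0105), the one Notch probe called, against 0.72% of all probes. The second HEY1 probe was higher by 0.36 ± 0.24 in that step, which did not pass (limma, adjusted p = 0.558). Few probes of the table were called higher there, and this contrast was not recomputed in the other settings.

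Between the first and the last window 5 Notch probes were higher, against 24.9% of all probes, and 2 were lower, against 20%. The last window was higher by 1.71 ± 0.16 log2 units for HEY1 (limma, adjusted p = 4.82e-08), by 0.77 ± 0.24 for its second probe (adjusted p = 0.0144), by 0.40 ± 0.10 for HES1 (adjusted p = 0.00196), by 0.41 ± 0.13 for NOTCH2 (adjusted p = 0.0121) and by 0.37 ± 0.12 for JAG1 (adjusted p = 0.0185). JAG2 stood at -0.46 ± 0.14 (adjusted p = 0.0122) and -0.59 ± 0.20 (adjusted p = 0.0207) relative to the first window. NOTCH3 stood at -0.28 ± 0.13, which did not pass (adjusted p = 0.0733). The call of JAG1 was lost with cyclic loess (0.28, adjusted p = 0.0715) and without the 3, 6 or 42 h array, that of ILMN_2399523 without the 6 or 45 h array (-0.41 without 45 h), and that of the second HEY1 probe without the 3 h array (0.60).

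**Figure D3:**
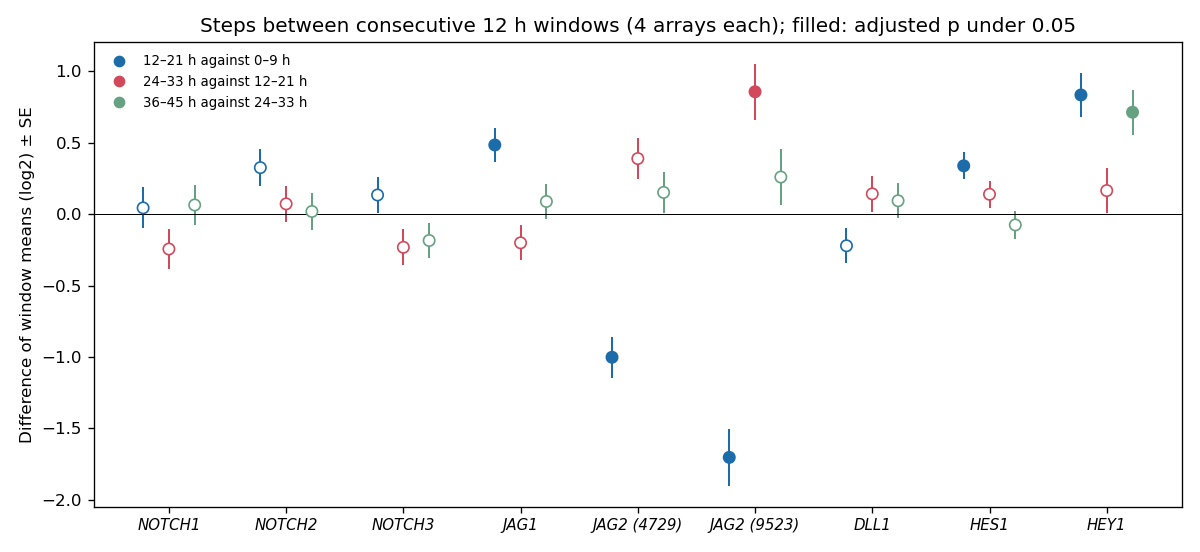
Difference between the means of consecutive 12 h windows (vertical axis, log2 units, bars 1 SE from the limma fit, 4 arrays a window) for 9 Notch probes, with the last 4 digits of the JAG2 probe names. Filled points have an adjusted p under 0.05. JAG2 has the steepest step, -1.70 at the second window, and HEY1 has filled points for its first and last steps. The dim HEY1 probe ILMN_2407308 is not shown.

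The genes that make, cut, transduce and end the Notch signal were described from lists of 61 other genes, of which 58 were on the array and 47 were tested, with 1 probe each. A time-dependent course was found for 29 of the 47, or 61.7%, against 51.3% of all probes tested. A linear rise was found for 19 and a linear fall for 7, against 26% and 21.7% of all probes, and the median linear change was 0.18 log2 units against 0.05. These shares of all probes are the ones to set beside the counts of the single lists below. The fourth receptor NOTCH4, the Delta-type ligands DLL3 and DLL4, the target HEY2, the DNA-binding partner RBPJ and the coactivators MAML2 and MAML3 were above background on 0 arrays. RBPJ had a single probe, and a probe without signal does not show that a transcript was absent. These genes were chosen after their values were seen.

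Of 6 other tested targets, 1 rose and 2 fell in the linear change, against 26% and 21.7% of all probes. HES2, a repressor of the HES family, had values of 6.33 to 7.35 in the first window and of 7.93 to 8.59 in the third, and rose by 1.38 ± 0.27 log2 units over 45 h (limma, adjusted p = 2.96e-04). HES6, which is known to counteract HES1, went from 12.51 at 0 h to 11.25 at 30 h and 11.91 at 45 h, and fell by 0.79 ± 0.12 (adjusted p = 2.98e-05). HES7, the oscillating repressor of the segmentation clock, was above background on 6 arrays, all by 21 h. It thus passed the filter through the arrays in which it was high, and its later values were not above background. Its signal at 0 h was at least 1.72-fold that at 45 h, and the fitted linear change was -1.47 ± 0.29 (adjusted p = 2.96e-04). The linear calls of HES2, HES6 and HES7 were lost with a step between 21 h and 24 h in the fit. HES4, whose upstream sequence is given above, had a linear change of -0.05 ± 0.09 that did not pass (adjusted p = 0.64), but depended on time (adjusted p = 0.00107), departed from a line (adjusted p = 0.00269) and stood at -0.27 ± 0.10 from 12 h to 21 h relative to 0 h to 9 h (adjusted p = 0.0484).

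In the receptor cleavage list 6 of 9 genes rose, against 26% of all probes, all 9 linear changes were above 0 and their median was 0.42 log2 units. ADAM10, the protease of the first cut, had 6.42 at 0 h and 7.92 at 45 h and rose by 1.44 ± 0.25 (limma, adjusted p = 8.62e-05). The γ-secretase subunits APH1A, APH1B and NCSTN rose by 0.59 ± 0.07, 0.59 ± 0.09 and 0.46 ± 0.11. APH1A went from 12.65 at 0 h to 13.38 at 45 h, the lowest and the highest of its 16 values, and a second APH1A probe rose by 0.53 ± 0.10. With a step between 21 h and 24 h in the fit, the NCSTN value was -0.20 and no longer passed. APH1B, with 0.58, did not pass there either (limma, adjusted p = 0.101).

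In the nuclear complex list 1 of 4 tested genes rose, about the share of all probes (26%). This was the acetyltransferase CREBBP, which rose by 0.50 ± 0.10 log2 units (limma, adjusted p = 3.10e-04). A second CREBBP probe had 0.49 ± 0.29 and did not pass (adjusted p = 0.18). The call of the first CREBBP probe was lost with a step between 21 h and 24 h in the fit (limma, adjusted p = 0.0563). Of 11 corepressor genes 5 rose and 3 fell, against 26% and 21.7% of all probes, with a median of 0.18. Among the Groucho-type corepressors that HES proteins recruit, TLE1 rose by 0.99 ± 0.22 and TLE4 by 0.82 ± 0.13, and TLE3 fell by 0.58 ± 0.21. CIR, a symbol that matched several RefSeq genes and is kept as in the table, rose by 0.69 ± 0.11. The TLE3 call was lost without a detection filter (adjusted p = 0.0505), with array weights and without the 39 or 45 h array. It was also lost with the step between 21 h and 24 h.

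Of 9 receptor turnover genes 5 rose and 1 fell, against 26% and 21.7% of all probes. LNX1, a ligase that acts on the Notch inhibitor NUMB, was above background on the 12 arrays from 12 h on and on none before, so it passed the filter through the arrays in which it was high. Its signal at 45 h was at least 1.4-fold that at 0 h, and the fitted linear change was 1.12 ± 0.24 log2 units (limma, adjusted p = 6.32e-04). DTX2, of the Deltex family of ubiquitin ligases, rose by 0.64 ± 0.10. DTX3L of the same family rose by 0.99 ± 0.26, but without the 45 h array the change was 0.56 and did not pass (adjusted p = 0.0727). The calls of LNX1 and DTX3L were lost with a step between 21 h and 24 h in the fit. AAK1, a kinase of endocytosis, was above background on 3 arrays, those of 3, 9 and 12 h. It too passed the filter through arrays in which it was high. Its fall of -0.85 ± 0.30 was lost without the 3, 6, 9, 12 or 42 h array.

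Of the other ligands, CNTN1, a contactin that can bind Notch, lay between 7.19 and 8.16 up to 21 h and between 8.56 and 9.06 from 24 h on. It rose by 1.39 ± 0.27 log2 units over 45 h (limma, adjusted p = 3.10e-04), and with a step between 21 h and 24 h in the fit its value was -0.72 (adjusted p = 0.311). In receptor glycosylation 3 of 4 tested genes depended on time and 1 had a linear change. POGLUT1, which adds glucose to Notch, fell by 0.26 ± 0.09 (limma, adjusted p = 0.023), and its second probe had -0.20 ± 0.15. The POGLUT1 call was lost with a straight line, with the step between 21 h and 24 h and without the 12, 33 or 39 h array. MIB1 and MIB2, the ligases of ligand endocytosis, had linear changes of -0.01 ± 0.19 and 0.61 ± 0.29, which did not pass by limma either adjusted or at an unadjusted p under 0.05. Both depended on time (adjusted p = 0.0121 and 0.00469) and departed from a line (adjusted p = 0.0167 and 0.0152). They were chosen after their values were seen.

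**Figure D4:**
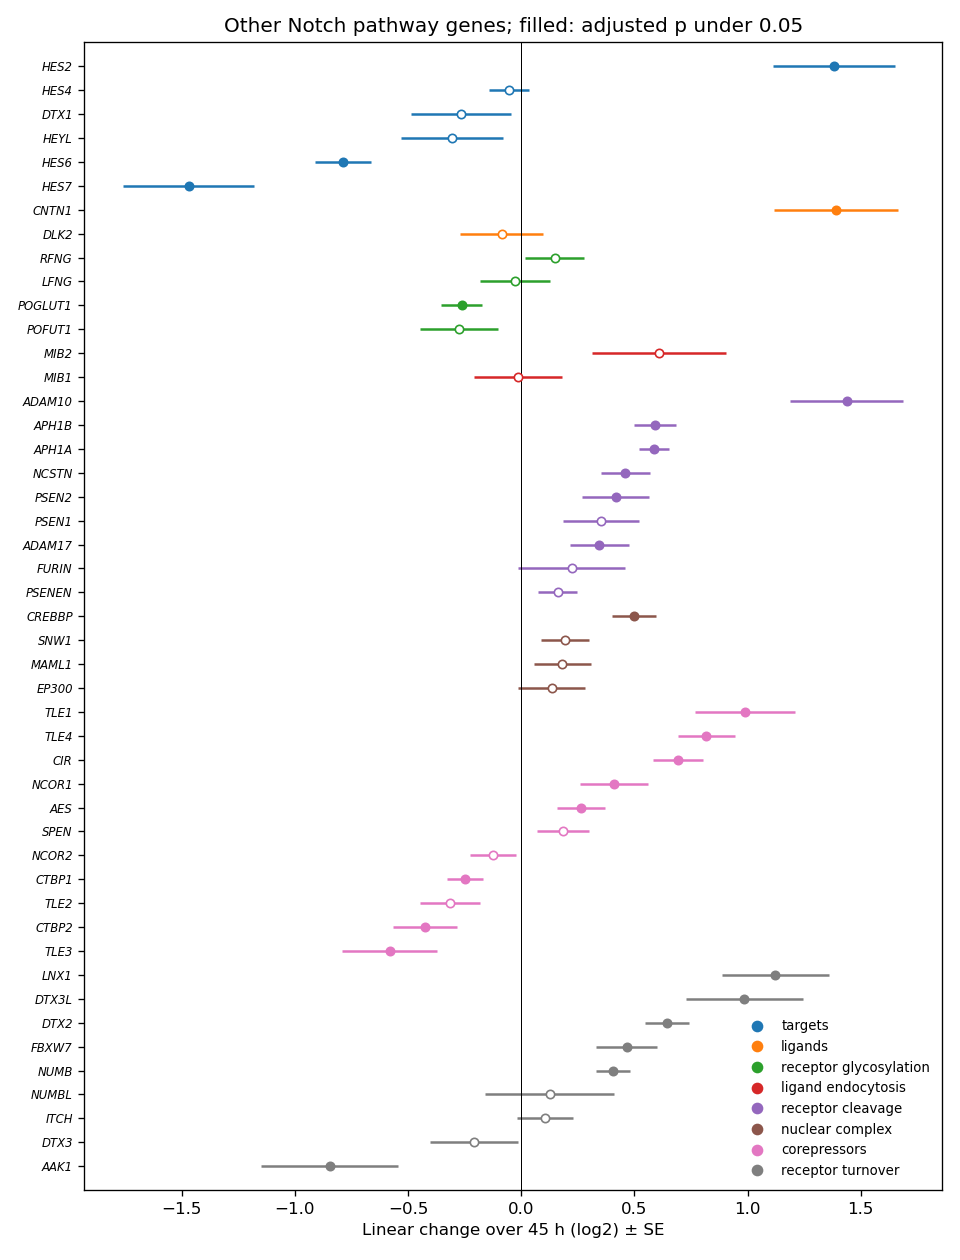
Linear change over 45 h (horizontal axis, log2 units, bars 1 SE from the limma fit over 16 arrays) for the 47 other Notch pathway genes tested, coloured by list. Filled points have an adjusted p under 0.05, and AES is the older symbol of TLE5. All 9 receptor cleavage genes lie to the right of 0, and the targets lie on both sides.

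The probes whose courses were most like those of the Notch genes were found by Pearson r over the 16 arrays, as a description. For HEY1 these were ARMCX3, TMEM44 and CYP4X1, each with an r of 0.97, and 275 probes had an r above 0.9. For HES1 they were ZNF16, FLJ20160 and RAB7 (the last 2 by the symbols of the table), each with an r of 0.96, with 139 probes above 0.9. For JAG2 (ILMN_1764729) they were WDR1, CD70 and ZDHHC24 with 0.93, 0.90 and 0.90. Above 0.9 were 4 probes, and 1 of them was the JAG2 probe ILMN_2399523. For NOTCH1 the closest were TLN1 (0.84), PSORS1C1 (0.83) and DCTN1 (0.81), for NOTCH2 TBC1D14 (0.90), KIAA1217 (0.89) and ARHGAP21 (0.87), and for NOTCH3 SPTAN1 (0.86), MLLT6 (0.86) and PDIA4 (0.85). For each of these receptors 0 probes had an r above 0.9. The courses of HEY1 and HES1 were thus shared by many probes of the table, that of JAG2 by few and those of the receptors by 0 at that r.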

How the data were processed

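Gene expression was measured in SUM-225 cells at 16 times after addition of 1 µM CP724,714, with 1 Illumina bead array per time, grouped by the time in the labels. The deposited table holds a signal intensity on a linear scale, which the authors had neither background-subtracted nor normalized, and a deposited detection p-value for every probe on every array. The study's methods describe quantile normalization as a later step. The scanning software and genome build are not given in the sources used here. Median signals were 242 to 384, and 16 arrays limit the precision. All columns of per-sample values were used.

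Background was removed by the normexp model, with negative controls inferred from detection p-values, and 16 was added before quantile normalization and log2 (neqc, limma 3.58.1, R 4.3.3), which understates changes of dim probes. Testing was limited to the 16110 probes whose detection p was under 0.05 on 3 or more arrays. A cubic in hours was fitted with lmFit and eBayes (intensity trend). Its 3 coefficients were tested together by F, its first-order coefficient gave the linear change (scaled to 45 h) and an SE, and an F-test of the remaining coefficients the departure from a line. The 4 windows had a separate fit. Tests were two-sided, adjusted by Benjamini-Hochberg over all probes tested, at 0.05. The linear change and the window differences were checked on simulated straight-line changes with independent noise. Shifts shared by sets of arrays were not simulated, and the F-tests were not checked in this way. Errors come from the deviations of single arrays, each of another culture and time, from the fit. They contain any change the fit cannot follow, and the spread between cultures of the same time was not measured. Where a gene had several probes, its value in the lists came from that with the highest mean.

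The Notch genes, pathway lists and windows were chosen with earlier results of these data known. Named were all Notch probes, up to 4 genes with the largest passing linear change in each other list, the 3 genes most like each time-dependent Notch gene, and the markers. Other genes are said to be chosen after their values were seen. Older symbols were updated through RefSeq where 1 gene matched. A bound is the ratio to the lowest above-background value of the dim array, or to the dim probe's own value where that was higher.

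The settings tried were uncorrected signals (with 16 as the lowest), an offset of 50, cyclic loess or median scaling in place of quantiles, all probes, only probes above background on every array, array weights, each array left out, a step between 21 h and 24 h, the window as a factor beside a straight line, a straight line, a quadratic, a spline, every probe of a gene, and another 0 h reference. A step between 9 h and 12 h and all settings of the single window contrasts were added after seeing the data. Plots were made in Python 3.11.15 (matplotlib 3.10.9).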

Additional observations from a re-analysis of the deposited data

How the results depend on the processing

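Of 1169 recomputed values 1081 were classed as unchanged. For fitted changes and window differences this meant the same sign and call. Counts were classed so when they stayed close to the main count. Changes from 0 h to 45 h were classed so when they moved by less than the SD of the deviations from the fitted course. The 8 time-dependent Notch probes became 5 with a step between 21 h and 24 h, with a quadratic and with a spline, and 5 to 8 with single arrays left out, the lowest without 3 h. HES1, the first HEY1 probe and NOTCH3 were called in all of these. The 4 curved probes became 1 to 6 with single arrays left out, namely 1 without 3 h and 2 without 15 h or 18 h. The 6 probes that differed between windows became 4 to 8 with single arrays left out and 9 with array weights. The 5 probes with a linear change became 1 (HEY1) with the step at 21 h to 24 h. With a step at 9 h to 12 h there were 3 calls, those of HES1, the first HEY1 probe and JAG2 ILMN_2399523. That JAG2 probe was not among the 5, and NOTCH2, NOTCH3 and the second HEY1 probe were lost. With the window as a factor 0 were left, where 2 (HES1 and HEY1) had an unadjusted limma p under 0.05 and all 5 kept their sign. That fit called 145 of all 16110 probes tested. The 26 other pathway genes became 9 with the step at 21 h to 24 h and 0 with the window as a factor. In the window fit 11 of all 47 tested pathway genes had an unadjusted limma p under 0.05, LFNG and RFNG from outside the 26 among them. Of the 26, 23 kept their sign there, and of the 47, 36 did. Single signs were followed only for the Notch probes and for the pathway genes named by their passing linear change. Among these the sign of the linear change turned with the step at 21 h to 24 h for the JAG2 probe ILMN_1658925 (0.46), CNTN1 (-0.72), NCSTN (-0.20) and TLE3 (0.14). Among the same probes and genes it turned with the window as a factor for NOTCH1 (0.18), JAG2 ILMN_2399523 (0.0422) and TLE1 (-0.15). It turned with the step at 9 h to 12 h for JAG1 (-0.40) and for the 3 JAG2 probes, with 0.82 for ILMN_1764729, 0.27 for ILMN_1658925 and 2.06 for ILMN_2399523 (adjusted p = 7.24e-04). The JAG2 probe ILMN_1658925 also turned when single arrays were left out, with values from -0.18 to 0.18. The cause was not tested. No paired analysis was possible because the labels give 1 array per time. Signal over background limits the JAG2 probe ILMN_1658925, the second HEY1 probe, HES7, LNX1 and AAK1.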
